A study of Mus musculus with 7 samples.

Results

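Imprinted genes are expressed mainly or only from the allele inherited from 1 parent. The 47 genes described here were taken as a list of imprinted genes, located by symbol in the mouse RefSeq gene table, and placed against the lamin-associated domains (LADs) of mouse embryonic fibroblasts. A LAD is a long stretch of chromatin in contact with the nuclear lamina, the protein meshwork under the inner nuclear membrane. All 47 symbols matched 1 gene each, of 21887 protein-coding genes and 49943 genes in all on the placed chromosomes, and 43 of the 47 are protein-coding. H19, Meg3, Airn and Peg13 are long noncoding RNAs.

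The series used CUT&RUN, in which an antibody on permeabilised cells or nuclei directs a nuclease that releases the DNA near its target, in mouse embryonic fibroblast lines labelled iMEF, whose independent lines come from 1 mouse colony. Of 7 libraries, 2 biological replicates profiled Lamin B1, a structural protein of the lamina, and 2 were IgG controls, while H3K9me2 had 2 libraries with different antibodies and H3K14ac had 1. No treatment or genotype was compared, and the name of the domain list gives wild type. The values here come from that list, which holds 1437 LADs and is named as merged. It has no signal values (the score was 0 in each of the 1437 lines), no values per replicate and no split by parental allele, so no position below has a replicate error and no test between groups was possible.

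Most imprints are laid down in the germ line as DNA methylation of control regions, many of which govern a cluster of genes. A few, that of Sfmbt2 among them, rest on maternal H3K27me3 instead. Within a cluster some genes are read from the paternal and others from the maternal copy, often together with a long noncoding RNA. Many imprinted genes regulate fetal and placental growth, and several are read from a single allele in certain tissues only. Expression was not measured here.

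Imprinted genes were found on both sides of LAD borders. A gene was called inside when every base between its annotated start and end lay in 1 LAD, cut when only part did, and outside when no base did. Of the 47 genes, 8 (17.0%; exact 95% binomial interval 7.65% to 30.8%) were inside, 1 was cut and 38 were outside. Among all protein-coding genes 21.8% were inside, 3.36% were cut and 74.9% were outside. The 8 inside were 18.6% of the 43 protein-coding members, near the share of protein-coding genes. Of all 49943 annotated genes 30.7% were inside, above the share of members and just within that interval. With LADs at most 250 kb apart joined, 13 of the 47 and 26.1% of protein-coding genes were inside. The interval treats genes as independent, which they are not, since neighbours share a domain. Counted by locus, 5 of 20 clusters or single genes had a member inside or cut. These were the Peg3, Snrpn and Peg10 clusters and the single genes Rasgrf1 and Sfmbt2.

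**Figure D1:**
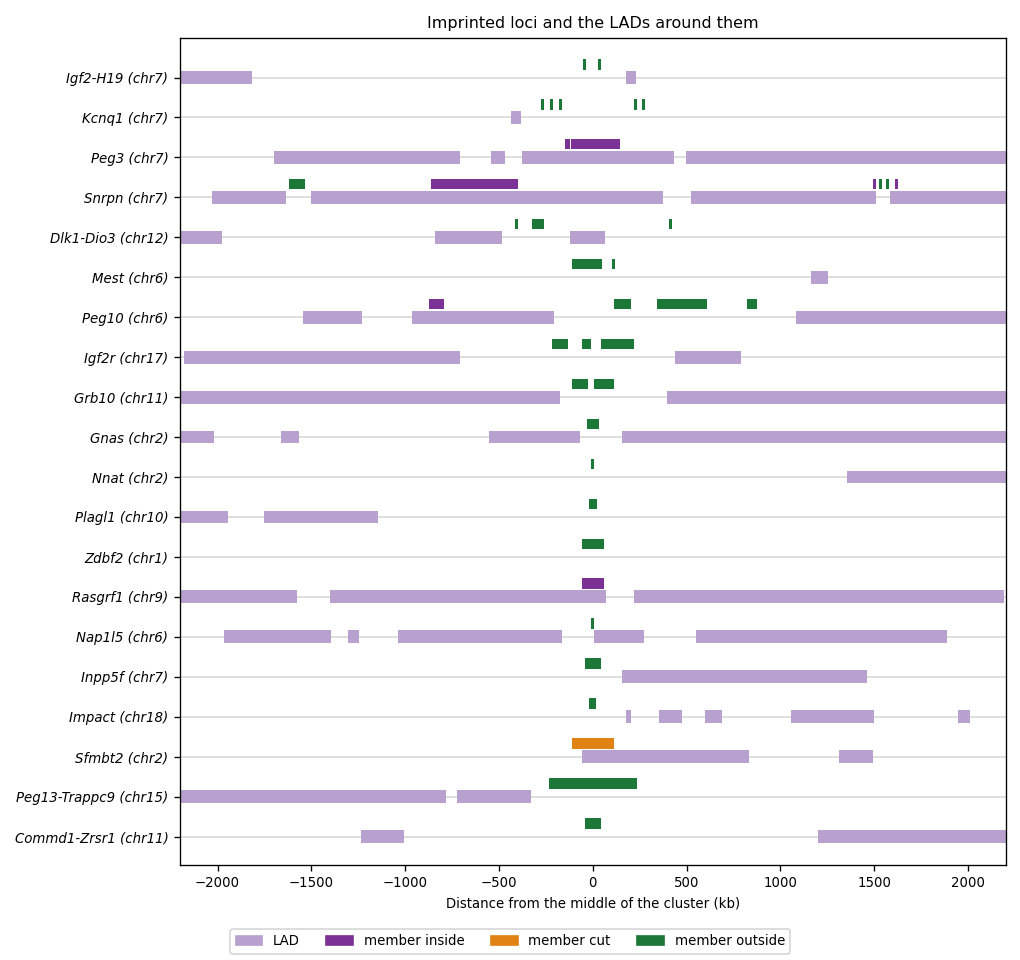
The 20 imprinted loci, each centred on its middle, with distance in kb on the x axis. Pale bars are LADs and the bars above them are member genes, coloured by place and drawn at least 16 kb wide. The Peg3 cluster lies wholly in a LAD, the Snrpn cluster spans 3 LADs and the gaps between them, and Zdbf2 has no LAD in the window.

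The Snrpn cluster on chromosome 7 corresponds to the human region of Prader-Willi and Angelman syndromes. From Ube3a to Peg12 (59228750 to 62464510, mm10) it measured 3236 kb, of which 89.5% lay in LADs, the largest share of the clusters that held both inside and outside members. It crossed 5 borders. Its 3 LADs measured 1880.0, 985 and 1302 kb, and the gaps before them measured 130.0, 147 and 77.5 kb, against a median of 240.0 kb for the 1416 gaps between LADs of the same chromosome.

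Along the chromosome the 6 members of this cluster did not form 1 block. Ube3a (59228750 to 59310837), an E3 ubiquitin ligase read from the maternal allele in neurons, was the sole protein-coding gene in the gap of 130.0 kb. It lay 16.3 kb from the LAD before it and 31.6 kb from the one after it, and it was cut with LADs extended by 25 kb and inside with LADs at most 250 kb apart joined. Snrpn (59982495 to 60450177), which encodes a spliceosomal protein, was wholly inside the LAD of 1880.0 kb (59342440 to 61222433), 640.1 kb from the nearer border. All 4 annotated starts of Snrpn lay in the LAD. The 206 snoRNA genes annotated in the cluster, 17 of them named Snord116, all lay in this LAD. They form 1 stretch (59347173 to 59980945) that begins close to its left border, so they are not separate placements. The share of all snoRNA genes inside LADs is not given here. The gap of 147 kb that followed held no protein-coding gene.

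Ndn, Magel2, Mkrn3 and Peg12 are short neighbouring genes read from the paternal allele, and they were divided between inside and outside. Ndn (62348277 to 62349928), which encodes necdin, was inside, 5.00 kb from the right border of the 985 kb LAD (61369933 to 62354929), and was the only protein-coding gene touching that LAD. Magel2 (62376979 to 62381640), like Ndn a member of the MAGE family, was outside, 22.0 kb beyond that border. Mkrn3 (62417593 to 62420153), a makorin ring finger gene, was outside too, 12.3 kb before the next LAD. Peg12 (62461871 to 62464510) was inside that LAD (62432430 to 63734925), 29.4 kb from its left border. Magel2 and Mkrn3 thus shared a LAD-free gap of 77.5 kb (62354930 to 62432429) that held no other protein-coding gene, and 7.27% of all gaps were shorter. The division depends on the borders: with LADs at most 100 kb apart joined all 4 genes were inside, and with LADs trimmed by 25 kb Ndn was outside. With LADs extended by 25 kb Mkrn3 was inside and Magel2 cut.

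**Figure D2:**
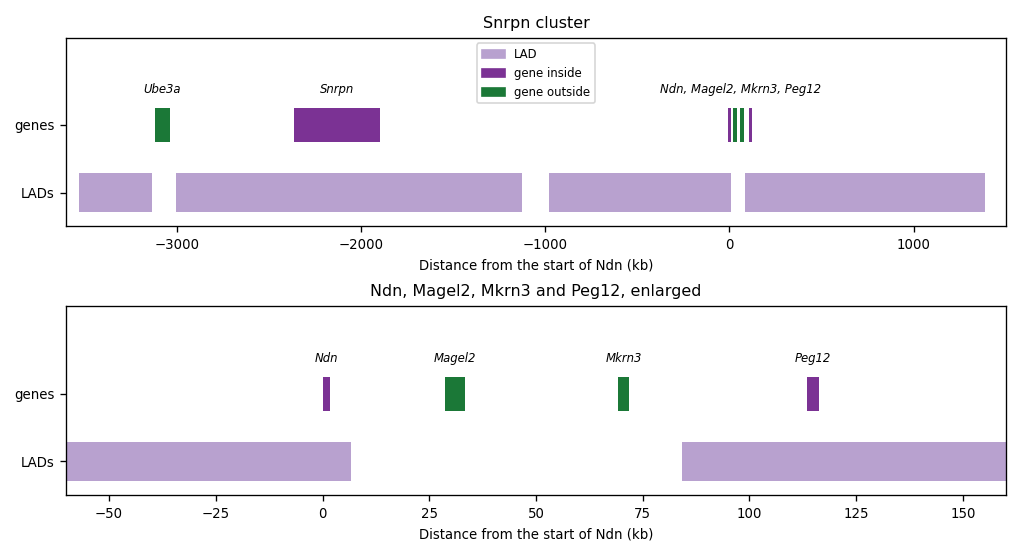
LADs and member genes of the Snrpn cluster, with distance from the start of Ndn in kb on the x axis (upper panel, whole cluster; lower panel, enlarged). Ndn and Peg12 lie in the LADs on either side of the 77.5 kb gap that holds Magel2 and Mkrn3.

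The promoter windows of these 4 genes are shown because the border runs between them. Each window runs from 250 bases before to 50 after the annotated start (RefSeq, GRCm38.p6, the build named mm10), is written 5′ to 3′ on the strand of the gene, and has its CpG dinucleotides in capitals. DNA methylation in mammals falls on CpG.

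Ndn, chr7:62348027-62348326, plus strand: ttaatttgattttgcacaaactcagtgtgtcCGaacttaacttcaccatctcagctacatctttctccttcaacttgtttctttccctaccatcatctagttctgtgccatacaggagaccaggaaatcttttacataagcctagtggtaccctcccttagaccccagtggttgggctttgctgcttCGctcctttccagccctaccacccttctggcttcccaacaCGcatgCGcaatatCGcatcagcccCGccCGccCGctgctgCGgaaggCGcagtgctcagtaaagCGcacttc
Magel2, chr7:62376729-62377028, plus strand: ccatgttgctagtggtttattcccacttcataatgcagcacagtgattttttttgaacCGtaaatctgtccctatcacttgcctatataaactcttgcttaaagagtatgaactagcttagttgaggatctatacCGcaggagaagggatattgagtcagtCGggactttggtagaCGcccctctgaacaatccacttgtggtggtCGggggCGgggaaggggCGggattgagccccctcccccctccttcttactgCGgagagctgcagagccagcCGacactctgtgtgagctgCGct
Mkrn3, chr7:62420104-62420403, minus strand: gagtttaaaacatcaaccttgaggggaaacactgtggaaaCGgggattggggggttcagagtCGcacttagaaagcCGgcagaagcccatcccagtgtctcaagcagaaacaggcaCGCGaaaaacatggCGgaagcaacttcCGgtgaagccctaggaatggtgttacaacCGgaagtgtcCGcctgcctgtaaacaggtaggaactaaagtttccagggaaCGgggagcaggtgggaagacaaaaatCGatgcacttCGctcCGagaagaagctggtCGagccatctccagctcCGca
Peg12, chr7:62464461-62464760, minus strand: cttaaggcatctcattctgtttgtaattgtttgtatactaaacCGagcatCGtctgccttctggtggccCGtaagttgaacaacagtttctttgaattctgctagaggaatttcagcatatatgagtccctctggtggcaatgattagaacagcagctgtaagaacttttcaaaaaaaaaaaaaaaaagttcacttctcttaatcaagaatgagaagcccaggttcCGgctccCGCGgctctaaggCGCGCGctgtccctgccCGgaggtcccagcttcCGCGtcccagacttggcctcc

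The 4 windows were alike in CpG content. The windows inside LADs held 11 CpG (Ndn) and 12 (Peg12), and those in the gap held 10 (Magel2) and 15 (Mkrn3). GC content was 51.0%, 47%, 51.0% and 53.3% in the same order. The counts of the genes inside lay between those of the genes outside.

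The Peg3 cluster, also on chromosome 7, was the only locus of several members that lay in LADs as a whole. Zim1 (6674444 to 6696540), a zinc finger gene read from the maternal allele, Peg3 (6703892 to 6730462), a paternally expressed zinc finger gene, and Usp29 (6730559 to 6967220), a paternally expressed ubiquitin protease gene, were inside the same LAD of 810.0 kb (6442607 to 7252604). They lay 231.8, 261.3 and 285.4 kb from the nearer border, so none of the 3 was close to an edge. The same LAD touched 16 protein-coding genes in all. Of these, 7 were olfactory receptor genes, all between Zim1 and the left border, and 4 were Zfp genes. The gaps on its sides were short, at 90.0 and 65.0 kb.

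Peg3 and Usp29 start head to head, and their windows overlap. The Peg3 window is shown as the start of a cluster lying wholly in a LAD, with CpG in capitals as before.

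Peg3, chr7:6730370-6730669, minus strand: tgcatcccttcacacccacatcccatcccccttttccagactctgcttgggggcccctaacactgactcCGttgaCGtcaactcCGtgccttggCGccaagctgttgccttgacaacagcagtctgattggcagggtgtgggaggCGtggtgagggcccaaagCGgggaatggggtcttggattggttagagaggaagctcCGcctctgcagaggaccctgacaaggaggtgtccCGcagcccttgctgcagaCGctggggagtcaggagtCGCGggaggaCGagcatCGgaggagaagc

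It held 13 CpG, the window of Usp29 held 17 and that of Zim1 held 20. Zim1 also had 1 match to TGCCGC, the hexamer bound by ZFP57, a zinc finger protein that maintains imprints. The windows of Peg3 and Usp29 had no match.

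Rasgrf1 and Sfmbt2 were the single-gene loci in contact with LADs. Rasgrf1 (chromosome 9, 89909508 to 90026979), which encodes a Ras exchange factor, is read from the paternal allele. It was inside a LAD of 1472 kb (88566305 to 90038799) and 11.8 kb from its right border, with no protein-coding gene in between. With LADs trimmed by 25 kb it was cut. Its start lay on the far side from that border. The LAD touched 15 protein-coding genes, of which Rasgrf1 was the last before the border.

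Sfmbt2 (chromosome 2, 10370440 to 10595253), a Polycomb-group gene with paternal expression in extraembryonic tissue, was the only member cut by a border. The border at 10427379 left the first 56.9 kb of the gene, with both annotated starts, outside and placed the other 167.9 kb (74.7% of the gene) in a LAD that ran on to 11317375. The gene table lists 72 microRNA genes within Sfmbt2. All 72 were in the part inside the LAD, the nearest of them 39.3 kb past the border. The table holds no exons, so whether the border fell in an exon or an intron is not given here.

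The windows of both genes are shown because 1 start lies in a LAD and the other outside it.

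Rasgrf1, chr9:89909525-89909824, plus strand: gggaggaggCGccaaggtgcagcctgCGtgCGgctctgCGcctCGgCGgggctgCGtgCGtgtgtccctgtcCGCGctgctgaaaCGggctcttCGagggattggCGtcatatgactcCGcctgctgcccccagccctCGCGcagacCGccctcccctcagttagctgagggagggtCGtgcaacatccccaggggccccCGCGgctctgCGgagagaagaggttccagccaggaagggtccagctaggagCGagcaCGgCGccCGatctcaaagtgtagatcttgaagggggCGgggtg
Sfmbt2, chr2:10370201-10370500, plus strand: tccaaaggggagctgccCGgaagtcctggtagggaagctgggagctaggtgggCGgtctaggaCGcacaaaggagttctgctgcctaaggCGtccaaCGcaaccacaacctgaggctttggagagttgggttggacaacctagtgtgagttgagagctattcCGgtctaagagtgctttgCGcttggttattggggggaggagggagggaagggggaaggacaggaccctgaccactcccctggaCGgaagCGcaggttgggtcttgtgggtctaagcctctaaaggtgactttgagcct

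Rasgrf1, with its start in the LAD, held 26 CpG (GC content 68.3%). Sfmbt2, with both starts outside, held 9 (57.7%) in the window shown and 16 at its inner start.

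In the Peg10 cluster on chromosome 6, 1 of 5 members was inside. Calcr (3685678 to 3764713), the calcitonin receptor gene, which is read from the maternal allele in brain, was inside a LAD of 757 kb (3594636 to 4352133), 91.0 kb from the left border, which cut the neighbouring gene Vps50. The other 4 shared the following gap of 1292 kb. Sgce, the epsilon-sarcoglycan gene, and Peg10, a retrotransposon-derived gene needed in placenta, were 322 and 395 kb from the LAD of Calcr. Ppp1r9a, which encodes neurabin 1, and Asb4, an ankyrin repeat gene, were 479 and 212 kb from the LAD on the other side. The gap also held Col1a2, a collagen gene of fibroblasts.

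The Dlk1-Dio3 cluster on chromosome 12 had all 4 members outside, yet 22.6% of its 829 kb lay in a LAD. Dlk1 (109452485 to 109463336), a paternally expressed delta-like gene, Meg3, a maternally expressed long noncoding RNA, and Rtl1, a paternally expressed retrotransposon-derived gene, were in a gap of 362 kb with no other protein-coding gene. Dlk1 was 72.6 kb, Meg3 161.1 kb and Rtl1 138 kb from the nearest LAD. A LAD of 187.5 kb (109742397 to 109929896) that touched no protein-coding gene separated them from Dio3, the type 3 deiodinase gene, which was 349 kb beyond it.

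This LAD began within the microRNA cluster. The microRNA table holds 58 hairpins between Dlk1 and Dio3, of which 51 lay before the border, 6 lay in the LAD and 1, Mir1247, lay beyond it. The 6 inside were Mir541, Mir409, Mir412, Mir369, Mir410 and Mir3072, all within Mirg, a maternally expressed noncoding RNA gene that the border cut, with 48.8% of it in the LAD. Mir541 began 12 bp past the border and Mir377 ended 1819 bp before it. Domain lengths in this list come in steps of 2.5 kb, and the error of its borders is unknown. The side on which hairpins near this border fall is thus not resolved. Mir377 and the 5 hairpins from Mir541 to Mir410 lay within 1 such step of it. Mir3072, at 5481 bp past the border, lay farther, but all 6 were closer to the border than the 25 kb shift used elsewhere. Mature microRNAs around the border are printed 5′ to 3′ with the seed (bases 2 to 8) in capitals (RefSeq, GRCm38.p6, plus strand). They are given in chromosomal order. Of their hairpins, only Mir496a, 3199 bp before the border, and Mir3072 lie farther from the border than 2.5 kb.

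mmu-miR-496a-3p: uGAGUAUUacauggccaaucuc
mmu-miR-377-3p: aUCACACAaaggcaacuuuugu
mmu-miR-541-5p: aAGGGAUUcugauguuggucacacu
mmu-miR-409-3p: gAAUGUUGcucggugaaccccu
mmu-miR-369-3p: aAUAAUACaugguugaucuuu
mmu-miR-410-3p: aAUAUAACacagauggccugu
mmu-miR-3072-3p: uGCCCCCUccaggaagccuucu

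None of these 7 shared its seed with another mature microRNA of the cluster. Among the 108 mature names of the cluster 9 seeds were shared, each by 2 names. Of these, GGUUGUC was the only seed with a name from the 6 hairpins listed in the LAD, mmu-miR-410-5p, and it was shared with mmu-miR-494-5p.

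At distal chromosome 7 the Igf2-H19 and Kcnq1 clusters had all 7 members outside. Igf2, which encodes a fetal growth factor read from the paternal allele, was 130.4 kb and H19, the noncoding RNA read from the maternal allele, 219.0 kb from the LAD that followed them, with Ins2 between Igf2 and the border. That LAD (142797176 to 142849674) measured 52.5 kb, with 1.95% of LADs shorter, and was the last on the chromosome. The Kcnq1 members lay beyond it, with a LAD on 1 side only. Ascl2, a trophoblast transcription factor gene, was 117.1 kb from it, with Th in between. The tetraspanin genes Tspan32 and Cd81 were 155.2 and 203.1 kb away, Cdkn1c, which encodes the cell cycle inhibitor p57, 609 kb, and Phlda2, a placental growth restraint gene, 652 kb. The gap with Igf2 and H19 measured 1992 kb and touched 80 protein-coding genes, 40.2 per Mb. On its other side the next LAD was 1846 kb from Igf2.

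The members of the Igf2r cluster on chromosome 17 were outside as well, in 1 gap of 1145 kb. Igf2r, which encodes the receptor that carries IGF2 to the lysosome, was 306.8 kb from the nearest LAD. Airn, the paternally expressed noncoding RNA that overlaps Igf2r by 28.4 kb, was 216.7 kb away. The organic cation transporter genes Slc22a2 and Slc22a3 were 448 and 488 kb away. At the Grb10 locus on chromosome 11, Ddc (11814101 to 11898144), the decarboxylase gene of dopamine and serotonin synthesis, was 63.5 kb and Grb10, an adaptor of the insulin receptor, 179.9 kb from a LAD of 2705 kb, with Ikzf1 and Fignl1 between Ddc and the border.

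The next loci lay outside at distances from 7.33 to 309.6 kb. Nap1l5 (chromosome 6, 58905233 to 58907126), a paternally expressed gene of the nucleosome assembly family within Herc3, was outside by 7.33 kb, the smallest distance of the 38 genes outside. Gnas (chromosome 2, 174284320 to 174346744), which encodes the stimulatory G protein subunit and differs in parental origin between transcripts, was in a gap of 225 kb and 37.5 kb from the nearest LAD. All 4 of its annotated starts were outside. Joining LADs at most 250 kb apart put both Nap1l5 and Gnas inside, and extending LADs by 25 kb put Nap1l5 inside. Trappc9 (chromosome 15, 72589620 to 73061238), a trafficking subunit gene, was 93.7 kb from a LAD, with Kcnk9 in between, and Peg13, the noncoding RNA within it, 309.6 kb. Inpp5f, an inositol phosphatase gene, was 113.3 kb from a LAD, with Mcmbp and Sec23ip in between. Impact, a regulator of translation, was 158.5 kb from a LAD of 25 kb, with Hrh4 in between, and the gap in which it lay measured 9090.0 kb.

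The remaining loci were far from LADs. Zdbf2 (chromosome 1, 63200358 to 63314576), a paternally expressed gene, was the farthest at 2175 kb, in a gap of 7767 kb. Nnat (chromosome 2, 157560078 to 157562525), the neuronatin gene, was 1352 kb and Mest (chromosome 6, 30733506 to 30748466), a mesoderm-expressed hydrolase gene, 1261 kb away. Plagl1, a zinc finger transcription factor gene, was 1122 kb away. Copg2 and Klf14, the neighbours of Mest, were 1113 and 1051 kb away, and Commd1 and Zrsr1, the gene within it, 967 and 1039 kb. These 8 genes, 17.0% of the 47, had no LAD base within 1 Mb of their midpoint, as did 33.0% of protein-coding genes.

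**Figure D3:**
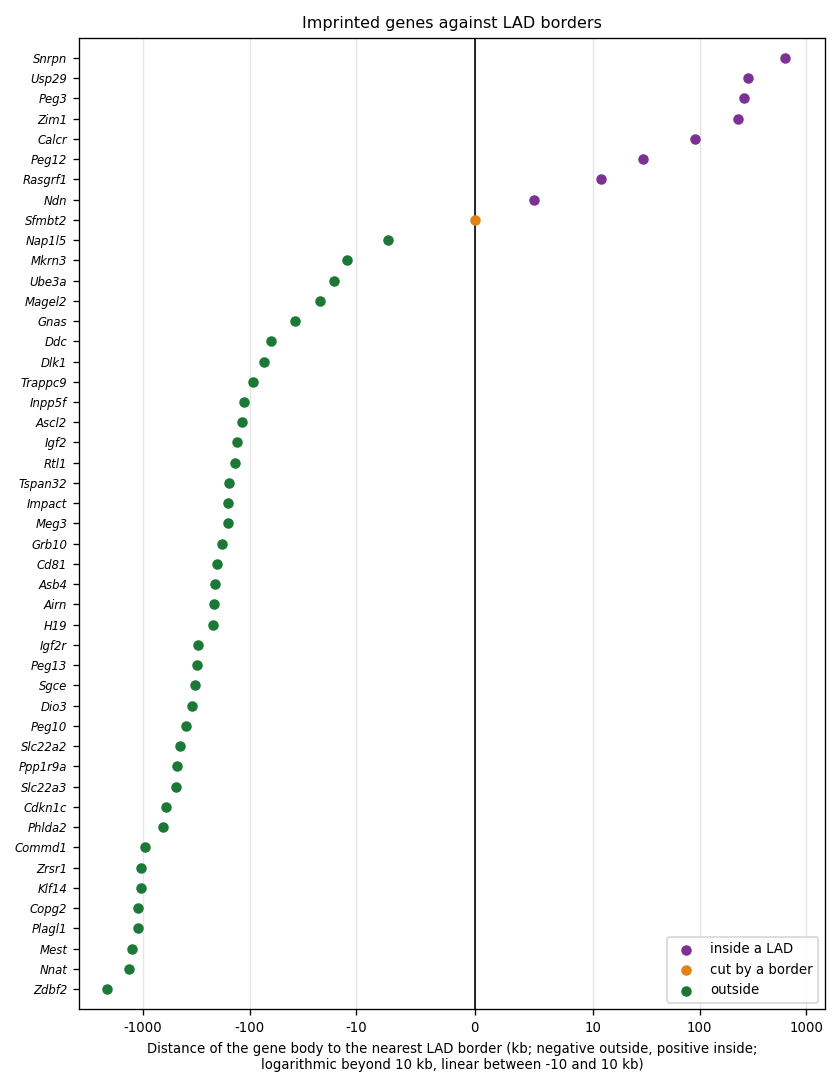
Distance of each of the 47 gene bodies to the nearest LAD border in kb, negative outside and positive inside (logarithmic beyond 10 kb on either side, linear between). Ndn, Nap1l5, Rasgrf1 and Mkrn3 sit 12.3 kb or less from a border on either side, and Zdbf2 is the farthest at 2175 kb outside.

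Imprinted genes outside LADs were nearer to them than protein-coding genes outside. By gene body, their median distance to the nearest LAD was 218 kb (quartiles 120.5 and 579 kb, n = 38), against 800.7 kb (261 and 1834 kb, n = 16387) for protein-coding genes outside. Of the members, 5 pairs overlap (Meg3 with Rtl1, Copg2 with Mest, Airn with Igf2r, Peg13 with Trappc9 and Zrsr1 with Commd1). The 38 genes share 18 gaps or a chromosome end, so they are not independent. This is a description of list and background with no test, and it depends on which LADs are kept. With LADs of at least 100 kb the medians were 372 kb for imprinted and 860.2 kb for protein-coding genes. With LADs of at least 500 kb, a limit above the median LAD length of 445.0 kb, they were 1139 and 1201 kb. A border within 100 kb of the gene, or in it, was found for 13 of 47 imprinted genes (27.7%) and for 17.8% of protein-coding genes. Those 13 belonged to 9 loci, and 5 of them to the Snrpn cluster.

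Around the members, LADs took up a median of 31.4% of the bases within 1 Mb on each side (quartiles 2.62% and 71.5%, n = 47). For protein-coding genes it was 22.6% (quartiles 0% and 57.6%). More than 50% was covered around 31.9% of members and 29.5% of protein-coding genes. The members' median depends on the window and on the LADs kept: it was 17.1% within 500 kb (6.57% for protein-coding genes), 0% within 100 kb (0% for protein-coding genes), and 11.7% within 1 Mb with LADs of at least 500 kb only. Members inside LADs lay between 53.5% and 96.1%, with a median of 88.3%, while all protein-coding genes inside had 80.9%. Members outside ranged from 0% to 96.1%. The highest of them were Magel2 and Mkrn3, both at 96.1%, followed by Ube3a at 81.8% and Nap1l5 at 77.4%. Peg12, which was inside, also had 96.1%. It is a neighbour of Magel2 and Mkrn3, so their windows are nearly the same and the equal share follows from that.

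**Figure D4:**
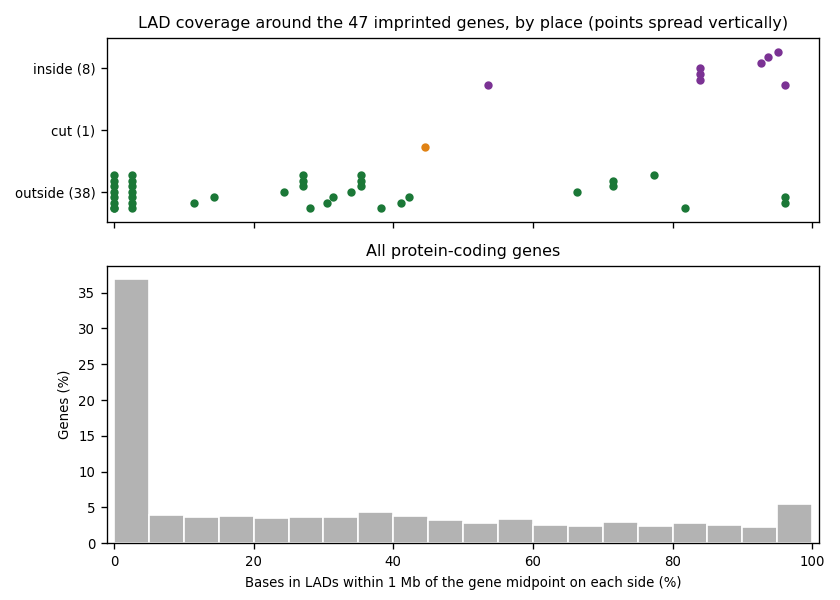
Percent of bases in LADs within 1 Mb of the gene midpoint on each side. The upper panel shows the 47 members by place, and the lower panel the distribution of all protein-coding genes in steps of 5%; members outside reach up to 96.1%.

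Genes were also counted by parental origin. Grb10, read from the maternal allele in most tissues and the paternal one in neurons, was counted as maternal, and Gnas, which differs between transcripts, in neither class. Of 26 genes counted as paternally expressed, 6 (23.1%; exact 95% binomial interval 8.97% to 43.6%) were inside, near the 21.8% of protein-coding genes, and 1 was cut. Of 20 counted as maternally expressed, 2 (10.0%; interval 1.23% to 31.7%) were inside, Zim1 and Calcr, and none was cut. The intervals overlap widely. The 7 paternally expressed genes in contact with LADs come from 4 loci and include 3 genes of the Snrpn cluster, so these counts are not of independent genes. Both classes met in the Peg3 LAD. Medians of the distance outside were 217 kb (n = 19) for paternally and 263 kb (n = 18) for maternally expressed genes. On chromosome 7, 6 of 17 members (35.3%) were inside, which is near the 35.8% of its protein-coding genes, and on the other chromosomes 2 of 30 (6.67%; interval 0.818% to 22.1%) were, against 20.3% of protein-coding genes there, a share within that interval.

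Promoter windows were used for 38 of the 47 genes, at 58 starts, and not for H19, Cdkn1c, Rtl1, Klf14, Peg10, Sgce, Impact, Peg13 and Trappc9. With the outermost start of each gene, the 8 members inside LADs held 2 to 26 CpG, with a median of 12.5. The lowest were Snrpn with 2 and Calcr with 4. For all protein-coding genes inside LADs the median was 2 (quartiles 1 and 6, n = 3929), and it was 3 (quartiles 1 and 10, n = 2798) without the olfactory and vomeronasal receptor genes. The 29 members outside had a median of 15, and all protein-coding genes outside one of 17 (quartiles 7 and 26, n = 12984). Members inside and outside LADs overlapped widely in CpG count. The choice of start bears on single genes, since Calcr held 29 CpG at its inner start.

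**Figure D5:**
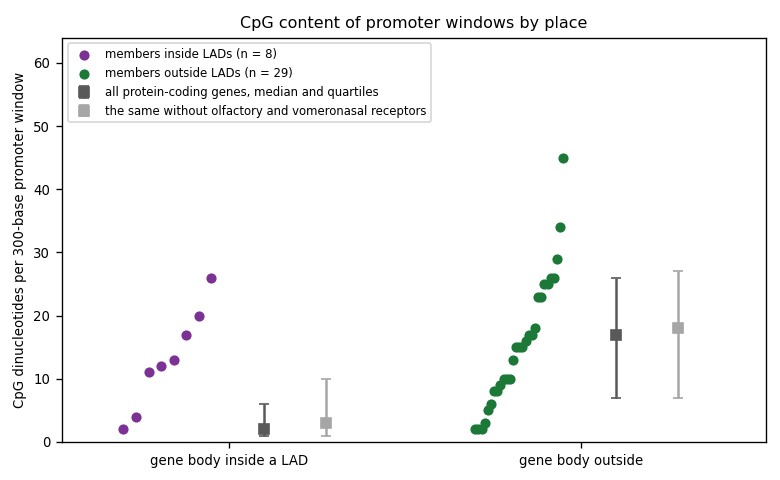
CpG dinucleotides per 300-base promoter window. Points are members by place, and squares with bars are the median and quartiles of all protein-coding genes with and without olfactory and vomeronasal receptors. Of the 8 members inside, 6 lie above the upper quartile of 10 of the protein-coding genes inside without receptors. Among the 6 are Peg3 and Usp29, whose windows overlap, so these points are not separate sequences.

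The motif TGCCGC was searched on both strands (GCGGCA on the other). It occurred in 11.6% of all 32851 windows of this length, whereas CG occurred in 94.6%. The motif contains a CG and so moves with CpG content. It was present in the window of 10 of 38 members (26.3%) and of 13.9% of protein-coding genes. Inside LADs it was present in 1 of 8 members (Zim1) and in 5.24% of protein-coding genes. Outside it was present in 9 of 29 members and in 16.5% of protein-coding genes. Zdbf2 had 3 matches and Nap1l5 2. At inner starts not counted here, Calcr had 2 matches at 1 start, and Snrpn and Igf2 had 1 each. Mest had 2 at each of 2 starts (30738050 and 30738053), whose windows nearly coincide, so these are the same matches. A match is a description of the letters and not of binding.

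Among 39 further imprinted genes found in the table, of 41 listed, 5 were inside, 5 were cut and 29 were outside. Those inside were Zim3 in the Peg3 LAD, Snurf in the Snrpn LAD, Tfpi2 in the LAD of Calcr, Begain in the LAD before Dlk1 and Dlx5 on chromosome 6. Those cut were Snhg14, the long host transcript of the Snrpn snoRNAs (94.1% in the LAD), Cobl next to Grb10 (63.2%), Mirg (48.8%), Pde10a (13%) and Atp10a (7.35%). Of this list 12.8% were inside, against 21.8% of protein-coding genes. As many were cut, against 3.36% of protein-coding genes, and 29 of 39 were outside, against 74.9%. The farthest were Htr2a at 2357 kb, Adam23, a neighbour of Zdbf2, at 1894 kb, and Smoc1 at 1531 kb. None of 13 genes of the imprinting machinery, such as Dnmt1, Dnmt3a, Zfp57, Trim28 and Ctcf, was inside or cut. The 8 fibroblast marker genes, among them Col1a1, Vim and Pdgfra, were outside too. Since 74.9% of protein-coding genes were outside, this is no check of the labelled cell type, which could not be checked without expression values.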

How the data were processed

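CUT&RUN libraries were made from 500000 cells per reaction, with antibodies diluted 1 to 100 (1 to 50 for IgG), per the labels' protocols. Reads were aligned with Bowtie2 to mm10, per the submitters' processing notes. The domain caller, its threshold and the use of IgG are not given in the sources used here. The deposited values are domain starts and ends in base pairs, and the deposited score is 0 throughout. Its name says merged, from which the use of both Lamin B1 replicates was inferred. Read depth is unknown, so no interval from counts can be given for a domain. Each of the 1437 lengths came to a multiple of 2.5 kb, give or take 125 bp.

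Positions are counted from 1. Genes, promoters and microRNAs came from RefSeq tables of GRCm38.p6. Distances are bases between gene body and LAD. Of 41 further imprinted genes, Zfp264 and Nespas had no match by symbol. The interval functions were tested on simulated data (4000 intervals, 0 mismatches with a base-by-base count). Python 3.11.15, pandas 2.3.3 and scipy 1.17.1 were used. No chance test was made: shares are set beside those of all protein-coding genes. The members and lists were chosen with earlier results of these data known. Named with coordinates are members inside, cut or within 100 kb of a border, and the 3 farthest. Alternatives changed domain length, joining, borders, the point of the gene counted, the window and the background.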

Additional observations from a re-analysis of the deposited data

How the results depend on the processing

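Over 8 alternative domain sets, 40 of the 47 genes kept their place in every one. The 7 that changed were Ube3a, Magel2, Mkrn3, Gnas, Nap1l5, Ndn and Rasgrf1. Leaving out LADs under 100 or 500 kb, or moving borders by 2.5 kb (the outward shift planned, the inward shift chosen after seeing the data), changed no gene's place. Joining LADs at most 100 kb apart put Magel2 and Mkrn3 inside, and joining at 250 kb put Ube3a, Gnas and Nap1l5 inside too, for 13 genes inside, with 26.1% of protein-coding genes inside at that setting. Extending LADs by 25 kb put Mkrn3 and Nap1l5 inside and cut Ube3a and Magel2 (3 genes cut), and trimming by 25 kb put Ndn outside and cut Rasgrf1 (2 cut). Loci with a member inside or cut rose from 5 to 7 with joining at 250 kb and to 6 with extension by 25 kb. They stayed at 5 in the other domain sets. Counting any overlap or gene midpoints gave 9 genes in LADs, and starts gave 8 of 38. The median distance outside of 218 kb became 372 kb with LADs of at least 100 kb, 1139 kb with 500 kb, 262.9 and 309.6 kb with joining at 100 and 250 kb, 215 and 283 kb with extension by 2.5 and 25 kb, and 220.3 and 244 kb with trimming by 2.5 and 25 kb. The median LAD share within 1 Mb of 31.4% became 11.7% with LADs of at least 500 kb, 34.0% with either joining, 31.8% and 35.2% with extension, 31.0% and 27.7% with trimming by 2.5 and 25 kb, and 17.1% and 0% in windows of 500 and 100 kb. These shifts follow from the construction of each alternative. With all annotated genes as background, 30.7% were inside in place of 21.8%. No paired analysis was possible because the list holds no values per replicate, which is also why no replicate could be left out. Read depth is unknown.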

Other observations

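All 13 microRNA hairpins in the span of the Snrpn cluster, each of them named Mir344 with a suffix or without, were inside the LAD of 985 kb whose only protein-coding gene was Ndn. In the other loci, Mir3099 within Usp29 and Mir653 and Mir489 within Calcr were inside LADs with their host genes. Mir675 within H19, Mir483 within Igf2 and Mir335 within Mest were outside.

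The LAD before Dlk1 (109024899 to 109379897) and the LAD after Rtl1 (109742397 to 109929896) bounded a gap of 362 kb that held Dlk1, Meg3, Rtl1 and 51 of the 58 hairpins. Begain lay in the LAD before Dlk1, 7.28 kb from its outer border.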
